A study of Mus musculus with 24 samples.

Results

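Galnt14, Chrdl2, Gm14226 and Ccdc3 are 4 of the 54752 genes in a count table of RNA-Seq from mouse embryos collected at E18.5, in which the ductus arteriosus (DA) and the ascending aorta were sequenced. They were picked on measured values of these same libraries: Galnt14, Chrdl2 and Gm14226 for a near-complete loss in the Prdm6-deficient DA, and Galnt14 and Ccdc3 for a genotype difference that was not the same in the 2 vessels. Their levels in the DA, and for Galnt14 and Ccdc3 also in the aorta, are therefore given as a description without a test. All 4 were among the 16463 genes that passed the filter on low counts. Galnt14 and Chrdl2 passed it only through the control DA, the group in which they were high, whereas Gm14226 and Ccdc3 also passed it with the control DA left out.

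The Prdm6-deficient embryos were Wnt1Cre;PRDM6f/f, with 5 DA and 5 aorta libraries used here. The control DA group had 7 libraries, of which 5 were PRDM6wt/f, 1 was PRDM6wt/wt without Cre and 1 was Wnt1Cre;PRDM6wt/wt. The control aorta group had 6 libraries, of which 5 were PRDM6wt/f and 1 was Wnt1Cre;PRDM6wt/wt. All embryos shared a C57BL/6 background, and the labels give no treatment. Replicates 1 and 2 of the Prdm6-deficient DA were pools of 2 embryos each, and replicate 4 of that group was not analysed here. Cre is driven by the Wnt1 promoter in the neural crest, so cells of other origins in the same vessels keep their Prdm6 alleles.

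The DA is the fetal vessel that carries blood from the pulmonary artery to the aorta and closes after birth by contraction of its smooth muscle, much of which comes from the neural crest. Galnt14 encodes a GalNAc transferase of the Golgi, 1 of the enzymes that place the first sugar of mucin-type O-glycans on serine and threonine residues of secreted and membrane proteins. Chrdl2 encodes chordin-like 2, a secreted protein that binds bone morphogenetic proteins (BMPs) and keeps them from their receptors. Ccdc3 encodes a secreted coiled-coil protein known from blood vessels and fat. Gm14226 is a predicted gene that GENCODE annotates as protein coding.

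Total counts ranged from 15163974 to 22610547 per library, and 3 counts, taken here as the smallest number detected, stood for 0.135 to 0.201 CPM, the count of a gene relative to its library's total. All levels are CPM scaled by the TMM method, and values after ± are SDs. Limits set by the 3 counts cover counting error only, whereas the SDs hold all the spread between libraries of a group. Prdm6 itself was at 108 ± 16.3 CPM in the control DA (n = 7; lowest 84.9, median 104, highest 128) and at 78.1, 70.8, 77.7, 78.5 and 58.6 CPM in Prdm6-deficient DA replicates 1, 2, 5, 6 and 7. In the aorta it was at 113 ± 16.2 CPM in controls (n = 6; lowest 95.6, median 109, highest 135) and at 69.6, 70.0, 68.5, 81.2 and 61.9 CPM in Prdm6-deficient replicates 1 to 5. The groups did not overlap in either vessel. Prdm6 fell by 0.57 ± 0.11 (SE) on the log2 scale in the DA and by 0.69 ± 0.11 (SE) in the aorta (edgeR, adjusted p = 0.000553 and 0.00017), leaving 67.5% and 62.0% of the control mean. The count covers the whole gene, so it does not show the deleted part alone. The summed CPM of 11 smooth muscle markers ranged from 15044 to 26576 in the control DA, from 10296 to 12527 in the Prdm6-deficient DA, from 8890 to 12610 in the control aorta and from 9878 to 11613 in the Prdm6-deficient aorta. In bulk tissue, fewer cells of a type and less RNA per cell cannot be told apart.

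**Figure D1:**
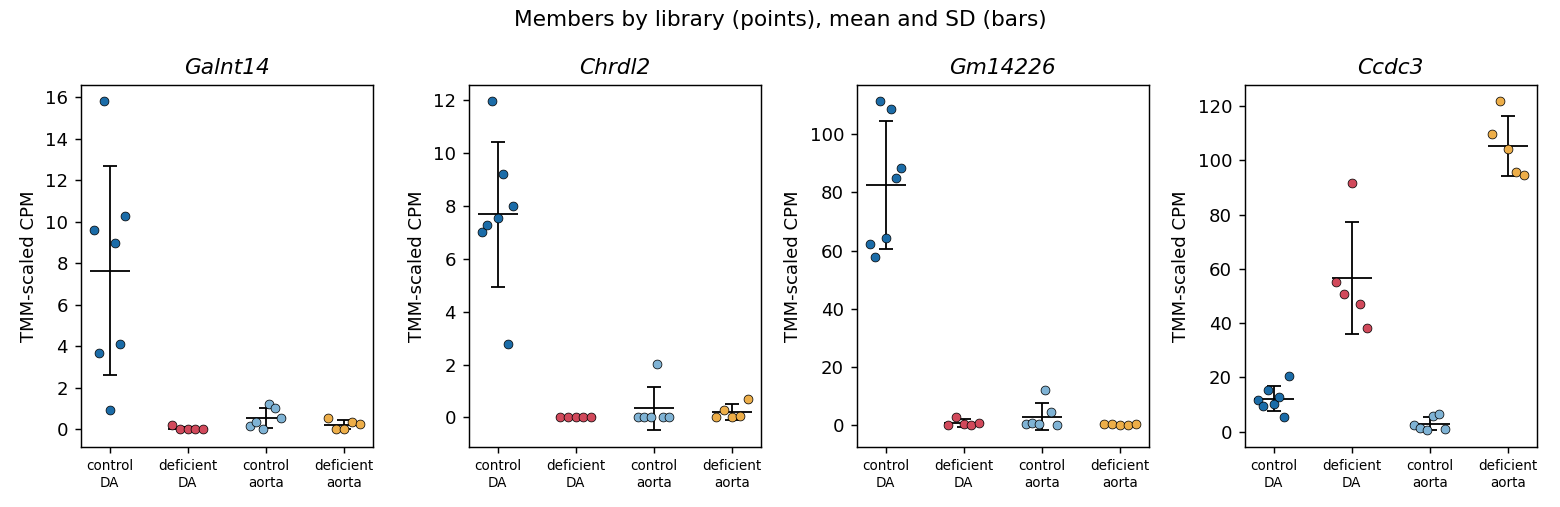
TMM-scaled CPM (y axes, linear, a separate scale for each gene) of the 4 genes in every library, with points for libraries, horizontal bars for group means and whiskers for SDs, over the 4 groups of vessel and genotype. The 7 control DA libraries held nearly all of the Galnt14, Chrdl2 and Gm14226 counts, while Ccdc3 was highest in the 5 Prdm6-deficient aortas, at 94.6 to 122 CPM.

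Galnt14 lies on chromosome 17 (mm10, chr17:73493228-73710453, minus strand; 18 exon blocks, 5898 exon bases). In the control DA it was at 9.61, 3.69, 15.8, 0.936, 8.99, 4.12 and 10.3 CPM in replicates 1 to 7, a mean of 7.63 ± 5.03 with a coefficient of variation of 66.0%. In the Prdm6-deficient DA it was at 0.187 CPM, or 3 counts, in replicate 1 and at 0 counts in replicates 2, 5, 6 and 7. The 2 groups did not overlap, although control DA replicate 4, with 14 counts, lay far below its group mean. Of all tested genes, 5.66% had non-overlapping control and deficient DA groups, and 2.82% were called lower in the deficient DA (adjusted p under 0.01 and a log2 difference beyond 0.5). Since Galnt14 was chosen on that contrast, nothing is read from those shares. With each deficient library at or under the 3-count floor, the control mean was at least 46.8-fold higher.

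In the aorta Galnt14 was low in both genotypes. Control aorta replicates 1 to 6 held 0.151, 0.364, 0, 1.21, 1.03 and 0.527 CPM (mean 0.547 ± 0.482), and Prdm6-deficient replicates 1 to 5 held 0.530, 0, 0, 0.372 and 0.244 CPM (mean 0.229 ± 0.232). These groups overlapped, and the largest count in either was 25. The fitted genotype differences were -7.58 ± 1.22 (SE) in the DA and -1.26 ± 0.92 (SE) in the aorta on the log2 scale, and their difference was -6.33 ± 1.48 (SE). The value for the DA depends on the prior count, because the deficient group is at or near 0, and is no bound; without deficient DA replicate 1 it was -10.24. From the lowest mean to the highest, the order was deficient DA, deficient aorta, control aorta and control DA, and each neighbouring pair of groups overlapped, the last through control DA replicate 4 alone. Per kb of exon, the control DA mean was 1.29 CPM, above 30.5% of tested genes, against 0.0927 CPM per kb in the control aorta.

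Chrdl2 lies on chromosome 7 (mm10, chr7:100006172-100034728, plus strand; 12 exon blocks, 3660 exon bases) and has no annotated gene overlapping it. In the control DA it was at 7.01, 7.28, 11.96, 7.56, 9.21, 2.79 and 7.997 CPM in replicates 1 to 7, a mean of 7.68 ± 2.75. All 5 Prdm6-deficient DA libraries held 0 counts. The control DA mean was thus at least 47.2-fold above the 3-count floor of the deficient libraries, and control replicate 6, the lowest, still held 50 counts. The fitted log2 difference of -10.24 ± 1.92 (SE) is set against a group at 0 and is no bound. At 35.8%, the coefficient of variation over control DA libraries was smaller than that of Galnt14.

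In the aorta, which did not enter the choice of Chrdl2, 1 library carried the counts of the control group. Control aorta replicate 4 held 42 counts, or 2.02 CPM, and the other 5 controls held 0. Prdm6-deficient aorta replicates 1 to 5 held 0, 0.275, 0, 0.0465 and 0.683 CPM, so the groups overlapped. The fitted log2 difference between genotypes was -0.73 ± 1.20 (SE). No p is given for it, because Chrdl2 did not pass the filter on low counts within the aorta. Without control aorta replicate 4 the sign reversed, to 5.02 ± 1.36 (SE), with the control group then at 0 in every library. Over the other alternatives and left-out libraries the value ran from -1.97 to 0.94. From the lowest mean to the highest, the order was deficient DA, deficient aorta, control aorta and control DA, and only the control DA stood apart from its neighbour, with 2.79 CPM in its lowest library against 2.02 CPM in control aorta replicate 4.

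Gm14226 lies on chromosome 2 (mm10, chr2:155018266-155027104, plus strand) and has 2 exon blocks of 3243 bases in all. It sits within the span of the agouti gene a, on the same strand, between 2 of its exons, and shares 0 exon bases with it. Gm14226 was the most abundant of the 4 genes in the control DA, at 62.4, 57.9, 111, 64.4, 109, 85.0 and 88.2 CPM in replicates 1 to 7 (mean 82.5 ± 21.9). Per kb of exon this was 25.4 CPM, above 88.2% of tested genes in that group. Prdm6-deficient DA replicates 1, 2, 5, 6 and 7 held 0, 3.01, 0.367, 0.0575 and 0.687 CPM. The pooled replicate 2, with 53 counts, was the highest of these and still lay far below the lowest control. The ratio of the means was 100.1-fold (82.5 against 0.824 CPM), and the fitted log2 difference was -6.64 ± 0.86 (SE). The ratio rested on that library: without it the deficient mean was 0.278 CPM and the ratio 297-fold. The agouti gene around it was at 0 counts in 21 of the 23 libraries, with 29 counts in control DA replicate 6 and 1 count in deficient aorta replicate 5.

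In the aorta, Gm14226 was at 0.404, 0.728, 0.565, 12.1, 4.67 and 0 CPM in control replicates 1 to 6 (mean 3.08 ± 4.74) and at 0.636, 0.596, 0.277, 0.233 and 0.439 CPM in deficient replicates 1 to 5 (mean 0.436 ± 0.182). Control replicates 2, 4 and 5 stood above every deficient library, replicate 2 only narrowly, at 0.728 CPM against at most 0.636 CPM. Control replicates 1 and 3 lay in the range of the deficient group, and replicate 6, at 0, lay below it. The fitted log2 difference of -2.82 ± 0.90 (SE) did not pass (edgeR, adjusted p = 0.0718), where 0.826% of tested genes were called lower and 1.63% higher in the deficient aorta. Over the alternatives and left-out libraries the adjusted p ran from 0.0256 to 0.875, and without control aorta replicate 4 the difference was -1.58 (edgeR, adjusted p = 0.438). From the lowest mean, the order was deficient aorta, deficient DA, control aorta and control DA, and all neighbours overlapped except the last pair, where 57.9 CPM in the lowest control DA library stood above 12.1 CPM.

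Ccdc3 lies on chromosome 2 (mm10, chr2:5137776-5230878, plus strand; 3 exon blocks, 2670 exon bases). It was the only member higher in the Prdm6-deficient vessels. The control DA held 11.6, 9.35, 15.4, 10.2, 12.8, 5.51 and 20.4 CPM in replicates 1 to 7 (mean 12.2 ± 4.74), and the deficient DA held 55.0, 50.5, 91.7, 47.2 and 38.1 CPM in replicates 1, 2, 5, 6 and 7 (mean 56.5 ± 20.7). The control aorta held 2.52, 1.35, 0.591, 5.54, 6.29 and 0.993 CPM in replicates 1 to 6 (mean 2.88 ± 2.45), and the deficient aorta held 110, 122, 104, 95.8 and 94.6 CPM in replicates 1 to 5 (mean 105 ± 11.1). The genotypes did not overlap in either vessel. For the aorta, 6.95% of tested genes had non-overlapping genotype groups. Nothing is read from that share, since Ccdc3 was chosen on its genotype differences.

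The ratio of the Ccdc3 means was 4.64-fold in the DA and 36.5-fold in the aorta. On the log2 scale the fitted differences were 2.21 ± 0.34 (SE) and 5.17 ± 0.41 (SE), the DA difference being 2.96 ± 0.51 (SE) below that of the aorta. The level was turned round between vessels: in controls the DA mean was 4.22-fold above the aorta mean, with overlap between the highest aorta library (6.29 CPM) and the lowest DA library (5.51 CPM), whereas in deficient embryos the aorta mean was 1.86-fold above the DA mean, with 94.6 CPM in the lowest aorta library against 91.7 CPM in the highest DA library. The order of means was thus control aorta, control DA, deficient DA and deficient aorta, and only the first pair overlapped. Per kb of exon, Ccdc3 went from 1.08 CPM in the control aorta, above 28.3% of tested genes, to 39.4 CPM in the deficient aorta, above 92.8%. Its aorta difference ranked 9 from the highest of the 16463 tested genes. Since Ccdc3 was chosen on values that include this difference, nothing is read from the rank. The deficient aorta was also the least variable of the 4 groups, with a coefficient of variation of 10.6%.

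**Figure D2:**
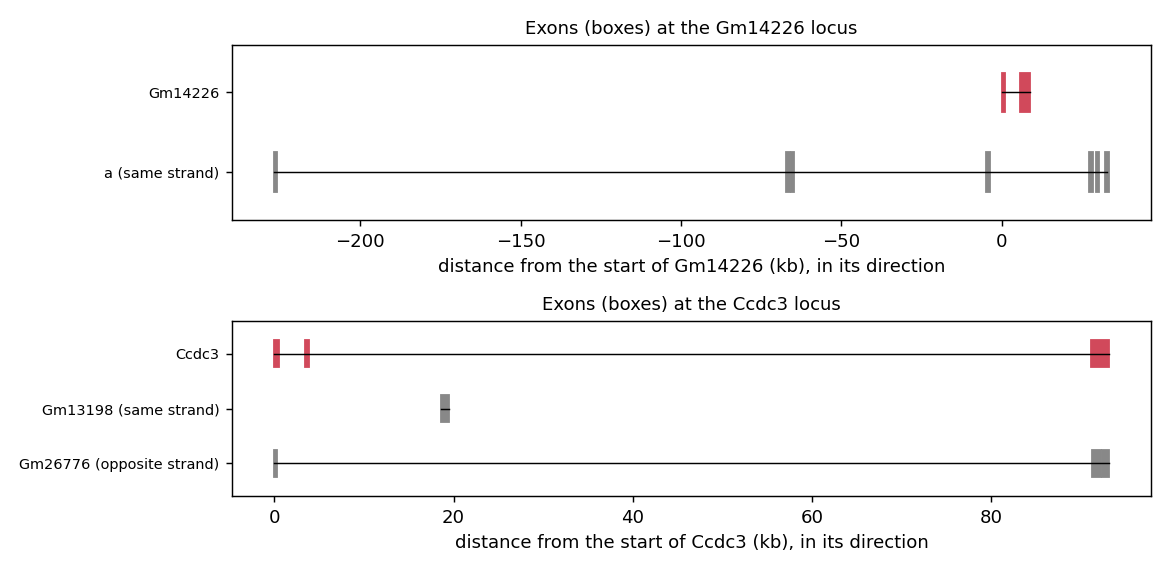
Exons (boxes) of Gm14226 and of the agouti gene a (upper map) and of Ccdc3 and the genes overlapping it (lower map), against the distance in kb from the start of Gm14226 or Ccdc3. Gm14226 has no exon in common with a, whereas 98.6% of the exon bases of Gm26776, on the opposite strand, lie within Ccdc3 exons.

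The lincRNA Gm26776 is annotated on the strand opposite to Ccdc3, and its exons cover 69.1% of the Ccdc3 exon bases. No source says that strand was used in counting, so reads within the exon bases that the 2 genes share cannot be told apart by strand. Gm26776 was listed at 0 in all 7 control DA libraries and above 0 in 6 libraries of the other groups, at 77.7 counts in deficient DA replicate 5, 24.9 in deficient DA replicate 6, 31.5 in control aorta replicate 3, 5.29 in control aorta replicate 6, 16.0 in deficient aorta replicate 1 and 55.0 in deficient aorta replicate 2. In control aorta replicate 3 it exceeded Ccdc3 itself, which was at 11.5 counts. Summing the counts of both genes, a choice made after these values were seen, gave 12.2, 57.5, 3.19 and 106 CPM as means in the control DA, deficient DA, control aorta and deficient aorta, and log2 differences of 2.24 in the DA and 5.04 in the aorta. For Galnt14, 36 of its exon bases are shared with an antisense gene, 0.6% of the total.

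Of the 4 genes, Galnt14 and Ccdc3 had a promoter sequence in the RefSeq table used here, and the 250 bases before the annotated start are shown for both because these genes differed in opposite directions (GRCm38.p6, read 5′ to 3′ on the gene's strand). The Galnt14 window is chr17:73710452-73710701 on the minus strand and the Ccdc3 window is chr2:5137526-5137775 on the plus strand. Capitals mark the GC box GGGCGG, here on the opposite strand as CCGCCC, a word found in 32.7% of the 32851 promoter windows of the same length and chosen after the sequences were seen.
Galnt14: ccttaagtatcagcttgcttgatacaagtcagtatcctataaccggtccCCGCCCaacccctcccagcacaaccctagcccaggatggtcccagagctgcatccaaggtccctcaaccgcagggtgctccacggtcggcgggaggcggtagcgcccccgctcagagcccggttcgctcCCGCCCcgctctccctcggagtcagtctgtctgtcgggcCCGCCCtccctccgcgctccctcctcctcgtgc
Ccdc3: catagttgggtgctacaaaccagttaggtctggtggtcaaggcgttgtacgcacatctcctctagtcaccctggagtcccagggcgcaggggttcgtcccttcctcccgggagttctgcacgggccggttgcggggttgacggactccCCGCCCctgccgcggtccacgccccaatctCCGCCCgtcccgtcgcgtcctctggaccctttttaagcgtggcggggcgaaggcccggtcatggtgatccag
Both windows were rich in G and C, at 66.4% for Galnt14 and 65.2% for Ccdc3, above 85.2% and 83.0% of all windows. Galnt14 had 3 GC boxes, at 201, 72 and 33 bases before the start, and Ccdc3 had 2, at 102 and 72 bases. Neither window held, on either strand, the CArG box, which serum response factor binds, the TEAD word GGAATG, the AP-1 word TGANTCA, the AP-2 word GCCNNNGGC or the words TTTCT and TTTAT. Over all windows these are present in 1.47%, 12.6%, 6.75%, 13.7%, 57.1% and 37.3%. The match says only whether these letters stand in the window.

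Several libraries came from both vessels of 1 embryo, which allowed the levels to be set side by side within embryos. Among 6 control embryos, the DA was higher than the aorta in 6 for Chrdl2, Gm14226 and Ccdc3 and in 5 for Galnt14. The exception was the embryo of control replicates 4, with 0.936 CPM of Galnt14 in its DA, the lowest of the control DA, and 1.21 CPM in its aorta, the highest of the control aorta. The aorta of that embryo also held the highest control aorta level of Chrdl2 and Gm14226. Some genes outside the member list were also highest in its aorta. Ptger4, the prostaglandin E receptor EP4, was at 55.9 CPM against 21.97 to 32.2 CPM in the other control aortas. Tfap2b, a neural crest transcription factor, was at 9.98 CPM against 0.606 to 5.66 CPM. Other values lay within the group: its summed smooth muscle markers were at 11430 CPM, in a control aorta range of 8890 to 12610 CPM. Its Ccdc3, at 5.54 CPM, was below the 6.29 CPM of control aorta replicate 5. Tfap2b is named here after its values were seen.

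Among deficient embryos, 4 aorta libraries could be set beside 3 DA libraries, 1 of them a pool that shares embryos with 2 aortas. Ccdc3 was higher in the aorta in all 4 settings, by 12.5 to 71.2 CPM. Gm14226 was higher in the DA in 4 of 4, but by no more than 2.41 CPM. Galnt14 and Chrdl2 were at 0 in each of these DA libraries and at most 0.683 CPM in the aortas. Within the second series of animals alone, by the run of animal numbers, the 5 control and 2 deficient DA libraries gave Ccdc3 means of 12.1 and 44.3 CPM, and the 5 control and 3 deficient aortas gave 3.34 and 109 CPM. In the first series the DA means were 12.4 and 64.6 CPM (2 and 3 libraries). Gm14226 went from 84.6 to 0.141 CPM in the DA of the first series and from 81.7 to 1.85 CPM in that of the second.

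**Figure D3:**
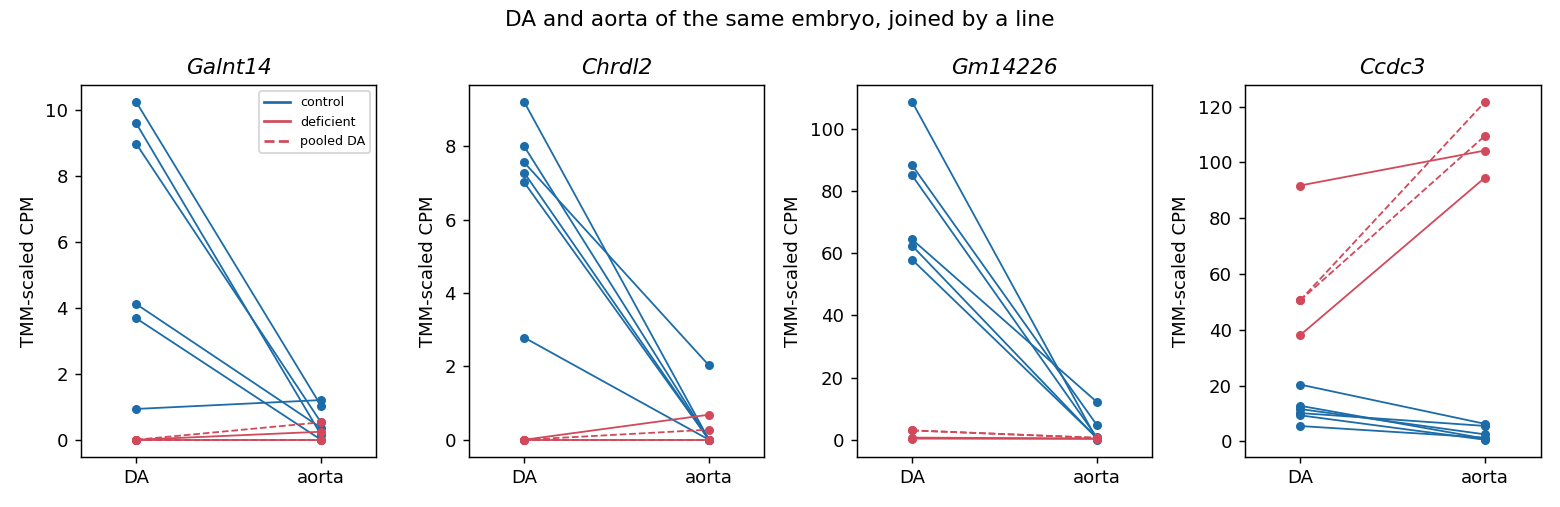
TMM-scaled CPM (y axes, linear, separate scales) of each gene in the DA and the aorta of the same embryo, joined by a line, for 6 control embryos (blue) and 4 deficient pairs (red, dashed where the DA library was a pool). Ccdc3 lines fall from DA to aorta in controls and climb in deficient embryos, whereas Galnt14, Chrdl2 and Gm14226 start high only in control DA.

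Chrdl2 belongs to a group of secreted proteins that bind BMPs, and 19 other BMP antagonists were listed, of which 17 were tested. In the deficient DA, 6 fell, 2 rose and 9 did not pass, with a median log2 difference of -0.31 against 0.01 for all tested genes. The background was 2.82% called lower and 2.61% called higher. This list and those below were chosen with earlier results of these data known, so their shares are given as a description. Grem1, encoding gremlin 1, went from 29.4 ± 10.9 to 0.415 ± 0.570 CPM (log2 difference -6.16 ± 0.70 SE, edgeR, adjusted p = 4.73e-07). Bmper, which encodes a BMP-binding endothelial regulator, went from 135 to 23.7 CPM (-2.51 ± 0.25 SE, edgeR, adjusted p = 6.82e-08). Nog, encoding noggin, went from 7.57 ± 2.12 to 1.14 ± 0.895 CPM (-2.73 ± 0.47 SE, edgeR, adjusted p = 0.000149). Nbl1, Twsg1 and Chrdl1, a chordin-like relative of Chrdl2, fell less, by 1.05, 0.75 and 0.82 on the log2 scale. Sost, encoding sclerostin, and Crim1, a membrane protein with chordin-type repeats, rose by 1.49 and 0.61. Crim1 and Chrd are named after their values were seen. Chrd, encoding chordin, was at 10.4 and 13.3 CPM and did not pass, and neither did Fstl1 and Fstl3.

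In the aorta 1 of the 17 rose and 0 fell, against 1.63% and 0.826% of all tested genes. That gene was Nog, which went from 0.849 ± 0.447 CPM in controls to 4.58 ± 1.25 CPM in deficient aortas (2.42 ± 0.45 SE, edgeR, adjusted p = 0.00088), opposite to its change in the DA. In the test of the difference between vessels 5 of the 17 passed, all with the lower value in the DA: Grem1, Bmper, Nog, Chrdl1 and Twsg1, against a background of 2.58% in either direction. In controls 6 of the 17 were higher in the DA than in the aorta and 1 was lower, against 3.16% and 2.19% of all tested genes. The 4 means of Grem1 (29.4, 0.415, 2.34 and 1.87 CPM in the control DA, deficient DA, control aorta and deficient aorta) and those of Chrdl2 (7.68, 0, 0.337 and 0.201 CPM) put the groups in the same order. That order rested on control aorta replicate 4. Without it the control aorta means were 1.44 CPM for Grem1 and 0 for Chrdl2, below those of the deficient aorta.

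**Figure D4:**
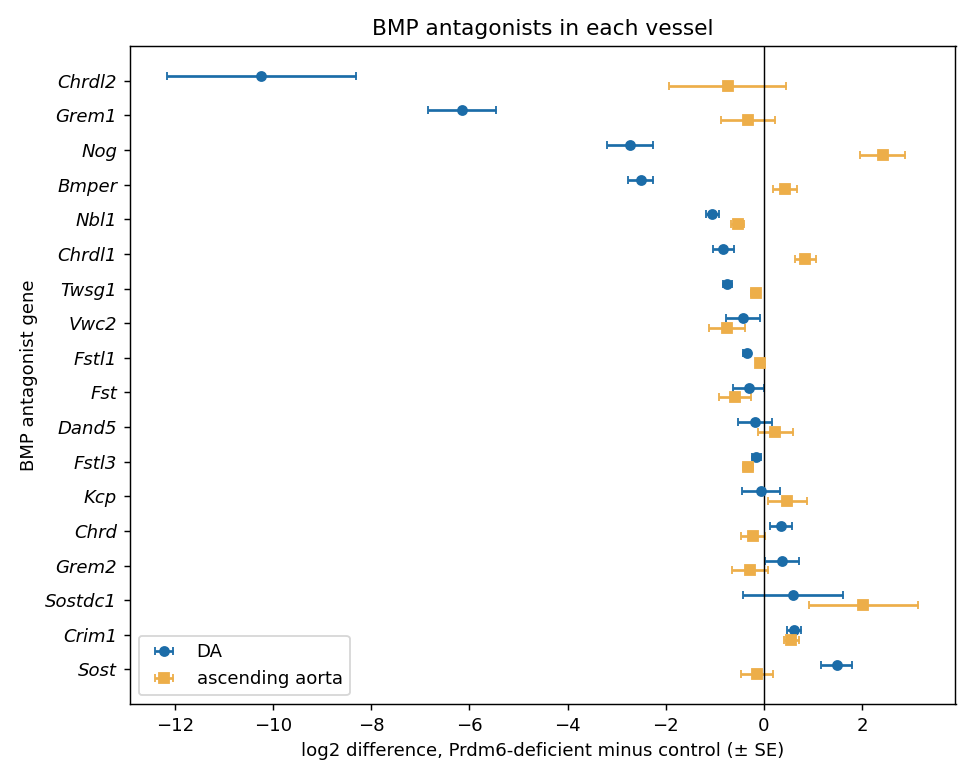
Log2 difference between Prdm6-deficient and control libraries (x axis, ± SE) for Chrdl2 and the 17 tested BMP antagonists (y axis), in the DA (circles) and the ascending aorta (squares). Chrdl2, chosen for its loss, is at the far left for the DA, followed by Grem1, Nog and Bmper, and Nog lies on opposite sides of 0 in the 2 vessels.

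BMP ligands and the genes that process them were listed together. Of 18 tested BMP ligands and processing genes, 1 rose and 1 fell in the DA, where 2.61% and 2.82% of all tested genes were called: Gdf10 went from 58.8 to 225 CPM (log2 difference 1.93) and Gdf6 from 11.97 to 5.87 CPM (-1.02). In the aorta 4 rose, which were Bmp4 (1.41), Gdf10 (1.53), Inhba (0.96) and Gdf6 (1.10), and Inhbb fell by 1.11, against 1.63% called higher and 0.826% called lower over all tested genes. Gdf6, Inhba and Bmp4 passed the test of the difference between vessels, by -2.12, -1.12 and -1.01. Bmp1, encoding a protease that cuts chordin, was at 193 and 208 CPM in the DA and did not pass. Among 18 receptors and Smads, the activin receptor gene Acvr2a fell by 0.61 and Rgma, a BMP co-receptor, rose by 0.67 in the DA, and Eng, encoding endoglin, rose by 0.68 in the aorta. Among 17 BMP target genes, Id2 and Id4 fell in the DA, by 0.68 and 0.52, and Bambi, a decoy receptor, fell by 0.66 in the aorta. The shares of all tested genes given above hold for these calls too. Between control DA and control aorta, 4 of the 18 receptors and Smads were called higher in the DA and 1 lower. Of the 17 target genes, 5 were called higher and 0 lower. Over all tested genes these shares were 3.16% and 2.19%. Id3, the most abundant Id gene of the list, was at 591 and 753 CPM in control and deficient DA and did not pass.

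Galnt14 shares its step with a family of enzymes. Of 18 other listed GalNAc transferases 14 were tested, and in the DA only Galnt2 passed, with a fall from 516 ± 84.6 to 329 ± 109 CPM (log2 difference -0.65 ± 0.16 SE, edgeR, adjusted p = 0.00756). Galnt16 and Galnt1, the most abundant of those that did not pass, were at 132 and 130 CPM in the control DA and at 110 and 148 CPM in the deficient DA. In the aorta Galnt16 fell from 257 ± 21.6 to 96.9 ± 26.2 CPM (-1.41) and Galnt10 rose from 67.6 to 144 CPM (1.09). Galnt16 also passed the test of the difference between vessels, by 1.15, and was lower in control DA than in control aorta by 0.96. Of 14 tested enzymes that extend or cap the O-glycan, 0 passed in the DA, and in the aorta the sialyltransferase gene St6galnac3 rose by 1.25 and St3gal2 fell by 0.53. St6galnac5, a sialyltransferase gene, passed the test of the difference between vessels, by -3.71, with means of 6.48 and 1.59 CPM in control and deficient DA and of 1.51 and 4.93 CPM in control and deficient aorta. C1galt1, encoding the core 1 synthase, passed it by 0.78. Over the 6 BMP and O-glycan lists together, 15 of 95 tested genes (15.8%) were called in the DA and 12 (12.6%) in the aorta, in either direction, against 5.43% and 2.45% of all tested genes. Since these lists were chosen with earlier results of these data known, nothing is read from the excess. Fitting the DA libraries alone, leaving out the pooled libraries or using the second series alone each gave 8 in the DA, and 9 were called without control DA replicate 5. Over all tested genes, 419 were called in the DA with the second series alone, against 894 in the main fit. Leaving out single libraries gave 784 to 948. Totals for the DA fitted alone and without the pools are not given here, so nothing is read from those list counts.

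Ccdc3 shares with other Ccdc genes only the coiled-coil name. Of 10 tested Ccdc genes, 0 passed in the DA and 0 in the aorta (edgeR), against 5.43% and 2.45% of all tested genes. Ccdc80 and Ccdc50, the most abundant, were at 245 and 116 CPM in the control DA and at 347 and 115 CPM in the deficient DA.

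The genes around each member were also counted. Within 500 kb of the 4 genes 114 other genes are annotated and 47 were tested, of which 3 were called in the DA and 3 in the aorta, with 0 called in the difference between vessels (edgeR). Each count is 6.38% of the tested neighbours, against 5.43% of all tested genes in the DA and 2.45% in the aorta, and with so few genes nothing is read from it. Next to Galnt14, Ehd3 lies 93.7 kb away with a log2 difference of -0.18 in the DA, and Lclat1, an acyltransferase gene 250 kb away, rose by 0.90. Near Chrdl2, Rnf169 at 25.7 kb and Pold3 at 47.4 kb had differences of -0.04 and 0.01, and 0 of 15 tested neighbours were called. Ahcy, encoding adenosylhomocysteinase, lies 32.2 kb from Gm14226 and fell by 1.001 in the DA. Eif2s2, a translation initiation factor gene 125 kb away on the other side, had a difference of -0.30 and was not called. Near Ccdc3, the kinase gene Camk1d at 62.6 kb rose in both vessels, by 2.03 in the DA and 1.91 in the aorta, and Optn at 73.7 kb differed by 0.48 in the DA without passing. The other 2 neighbours called in the aorta were E2f1 (-0.84) and Trp53inp2 (0.60), at 448 and 354 kb from Gm14226, and these and Lclat1 are named after their values were seen.

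The genes most like each member were sought by Pearson's r of log2 CPM over the 23 libraries, a description in which the libraries share their groups and so much of the pattern. For Galnt14 they included Por (r = 0.942), Btc (0.941), Twsg1 (0.919) and Bves (0.916). Por encodes cytochrome P450 reductase, Btc the growth factor betacellulin, and Twsg1 is a BMP-binding protein of the list above. After removal of the group means these r values were between 0.590 and 0.677. For Gm14226 they were Nptx2 (0.951), Bdh1 (0.946), Des (0.939), Smoc1 (0.938) and Ptger4 (0.937). Des encodes desmin, the muscle intermediate filament, and was at 449 ± 145 CPM in the control DA and at 28.4 ± 15.9 CPM in the deficient DA.

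Dct (r = 0.954) and Tyrp1 (0.947), encoding enzymes of melanin synthesis, were the genes most like Chrdl2, followed by Ptger4 (0.943), Nt5e (0.943) and Btc (0.937). Dct and Tyrp1 are 2 of the 7 melanocyte markers listed. Summed over that list, the level was 45.0 to 233 CPM in the control DA, 4.08 to 13.2 CPM in the deficient DA, 7.54 to 22.2 CPM in the control aorta and 4.39 to 8.85 CPM in the deficient aorta. Of the 7 markers 4 were called lower in the deficient DA and 0 in the aorta, against 2.82% and 0.826% of all tested genes. Dct, Tyrp1 and Tyr were at or under 3 counts in every deficient DA library. Control DA replicate 3 was highest in both Chrdl2 and Dct (11.96 and 129 CPM), but replicate 6, lowest in Chrdl2 at 2.79 CPM, was second highest in Dct at 75.9 CPM. In the control aorta, replicate 4 was highest in both, at 2.02 CPM of Chrdl2 and 7.91 CPM of Dct. The part of melanocytes in the Chrdl2 result was not tested.

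Adipocyte markers moved with genotype for some genes of that list: 3 of 6 tested were called lower in the deficient DA, against 2.82% of all tested genes. Adipoq, encoding adiponectin, was at 0 counts in every deficient DA library. The control DA libraries were far apart in it, with 29.1 and 26.8 CPM in replicates 2 and 7, 2.07 CPM in replicate 4, at most 0.186 CPM in replicates 1 and 3 and 0 in replicate 5. Plin1, a lipid droplet gene, was likewise at 0 in control DA replicates 3 and 5. Summed over the 8 listed, the level was 33.6 to 261 CPM in the control DA and 73.5 to 208 CPM in the deficient DA, so these overlapped. In the aorta the sum was 160 to 239 CPM in control and 107 to 163 CPM in deficient libraries, which overlapped too. The aorta medians were 179 CPM in control and 126 CPM in deficient libraries, a fall where Ccdc3 rose. The part of adipocytes in the Ccdc3 result was not tested. For Ccdc3, whose background names vessel and fat, endothelial markers are the other list to set beside it. The sum of 11 endothelial markers was 1077 to 1503 CPM in control and 1336 to 1857 CPM in deficient DA. In the aorta it was 911 to 1504 CPM in control and 1352 to 1829 CPM in deficient libraries. The genotypes overlapped in both vessels, in the aorta through control replicate 5 alone. The other control aortas held at most 1300 CPM, and the aorta medians were 1110 CPM in control and 1609 CPM in deficient libraries. Of the 11 markers, 1 rose in the DA and 3 rose in the aorta, against 2.61% and 1.63% of all tested genes. Their part in the Ccdc3 result was not tested. Of the other marker lists, 2 of 9 tested fibroblast, 3 of 7 chondrocyte, 1 of 4 autonomic neuron and 0 each of 6 Schwann cell, 7 cardiomyocyte and 6 leukocyte genes were called in either direction in the DA, and 9 of 11 smooth muscle genes were called lower. Of all tested genes, 5.43% were called in either direction in the DA and 2.82% were called lower.

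The genes most like Ccdc3 were Rspo3 (r = 0.921), encoding a secreted amplifier of Wnt signalling, Col8a1 (0.918), Higd1a (0.914), Thbd (0.908) and Col12a1 (0.905). Col8a1 and Col12a1 encode collagens, and Thbd encodes thrombomodulin. Col8a1 had means of 16.3, 57.5, 3.71 and 77.3 CPM in the control DA, deficient DA, control aorta and deficient aorta, the same order as Ccdc3. Rspo3, at 19.2, 90.2, 8.84 and 76.6 CPM, had its highest mean in the deficient DA instead. After removal of the group means, r with Ccdc3 was between -0.003 and 0.401 for these 5 genes.

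Between the members, r over the 23 libraries was 0.851 for Galnt14 and Chrdl2, 0.840 for Galnt14 and Gm14226 and 0.907 for Chrdl2 and Gm14226. Ccdc3 had r of -0.263, -0.105 and -0.201 with Galnt14, Chrdl2 and Gm14226. Once the group means were removed, the 6 pairs had r from 0.212 to 0.552, and the pairs with Ccdc3 were at 0.508, 0.460 and 0.552.

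**Figure D5:**
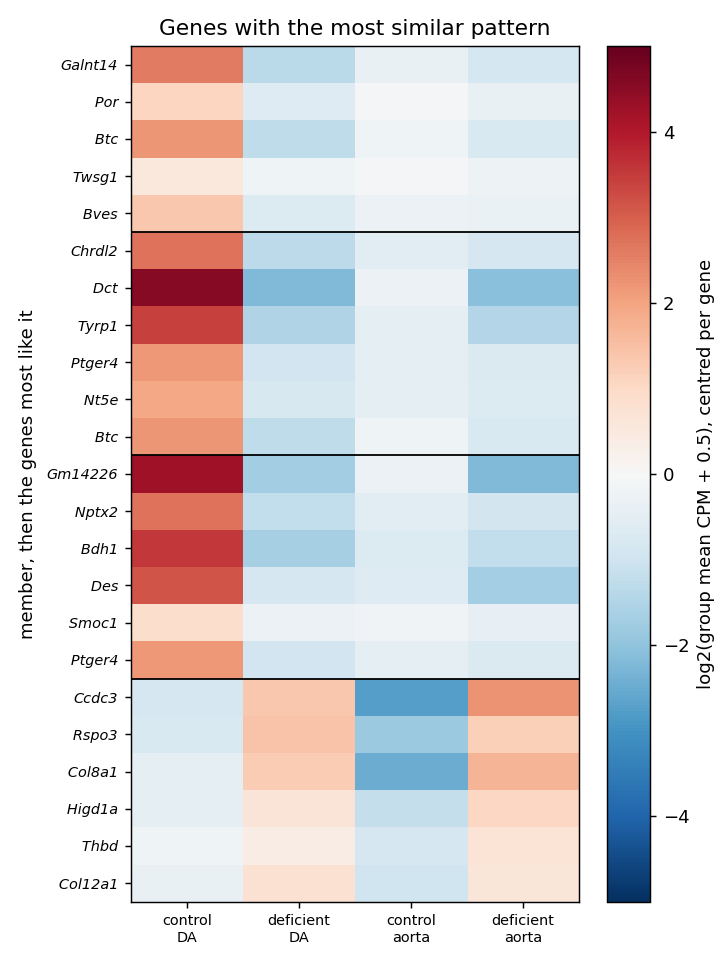
Group means on a log2 scale, centred for each gene (colour), for each member and below it the 4 or 5 genes shown among those with the highest Pearson's r over the 23 libraries, in the 4 groups (columns). Genes like Galnt14, Chrdl2 and Gm14226 are highest in the control DA, and those like Ccdc3 are higher in deficient than in control vessels. Centring hides the level: Twsg1, for example, was at 386 CPM in the control DA and at 226 to 253 CPM in the other groups.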

How the data were processed

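RNA-Seq of DA and ascending aorta from E18.5 embryos gave 24 labelled samples, of which 23 had a column in the table and were used. The columns were matched by sample title, with 0 left unmatched. Libraries were prepared with the NEBNext Ultra II kit, sequenced as paired ends, filtered with the FASTX-Toolkit and tagdust, and aligned by the authors to mm10 with STAR, and RSEM gave the deposited expected counts, which are estimated counts per gene and not normalized. Aligner versions are not given in the sources used here. RSEM divides reads shared by several genes among them, and no source says that strand was used.

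The members and the gene lists were chosen with earlier results of these data known. Expected counts were rounded (6.13% to 8.76% of values were not whole) and tested with edgeR 4.0.16 in R 4.3.3 (filterByExpr, TMM, 1 mean per vessel and genotype, quasi-likelihood test, Benjamini-Hochberg over 16463 genes). A call needed an adjusted p under 0.01 with a log2 difference over 0.5 in size. SEs are the size of the difference over the square root of F. Depth was 15163974 to 22610547 counts per library, and folds against groups at or under 3 counts in every library are lower bounds. Log2 CPM for r used a prior count of 2. Gene symbols of 54723 genes, loci and exons come from GENCODE M21.

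The rule for named genes took the members, Prdm6, up to 6 called and 2 uncalled genes of each list in each comparison, the 2 nearest annotated genes on each side, and the 5 genes most like each member, of which 1 gene is not reported here. Most of the nearest annotated genes were not tested, so the nearest tested gene on each side is given, a choice made with the values known, as it was for a few other genes marked in the text. The aorta test planned for Chrdl2 is given without its p, because that gene passed the filter only through the control DA. The labels do not say how far the libraries of a group are independent beyond their animal numbers. No 2 libraries of a group agreed within counting noise (chi-square per gene of at least 15.7). Alternatives were RLE size factors, no filter, DESeq2 1.42.0, limma-voom, vessels fitted alone, blocks, the animal series, and leaving out libraries. The fit was tested on simulated data before use. No protein sequences were used, and Chrdl2 and Gm14226 had no promoter entry.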

Additional observations from a re-analysis of the deposited data

Results flagged for a closer look

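In 3 of 20 groups of a member or Prdm6, 1 library lay far from the rest of its group by Dixon's criterion, which flags about 1 group in 20 by chance where values are not tied. That rate does not hold for the first 2, where every other library is at 0 and any count at all is flagged. Galnt14 was at 0.187 CPM, or 3 counts, in deficient DA replicate 1, with the other 4 deficient DA libraries at 0. Chrdl2 was at 2.02 CPM in control aorta replicate 4, with the other 5 control aortas at 0. Gm14226 was at 3.01 CPM in deficient DA replicate 2, a pool, with the other 4 at no more than 0.687 CPM. The deficient DA values of Galnt14 and Gm14226 are among those on which these genes were chosen.

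The genotype difference was not the same in the 2 vessels, by the interaction test of edgeR, for 14 genes of the BMP and O-glycan lists. The difference in the DA was below that in the aorta, on the log2 scale, for St6galnac5 (-3.71), Bmper (-2.94), Nog (-5.15), Grem1 (-5.83), Chrdl1 (-1.67), Twsg1 (-0.58), Gdf6 (-2.12), Inhba (-1.12), Bmp4 (-1.01), Acvr2a (-1.12), Id4 (-0.99) and Id2 (-0.84). It was above that in the aorta for Galnt16 (1.15) and C1galt1 (0.78).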

How the results depend on the processing

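The 4 members kept the direction of their DA, vessel and interaction differences, and Galnt14 and Ccdc3 that of their aorta difference, in all 471 comparisons with an alternative, of which 15 moved by more than 1 SD. That SD was the largest within-group SD of the gene's log2 CPM, from 1.28 for Ccdc3 to 2.46 for Gm14226. Smaller shifts were counted as unmoved. Most of these differences rest on values by which the members were chosen, so nothing is read from the kept direction. The Chrdl2 genotype difference in the aorta reversed from -0.73 to 0.94 with limma-voom, 0.92 with the embryo as a random block and 0.71 with the replicate block, and ran from -1.97 to 5.02 when single libraries were left out, the last without control aorta replicate 4. The cause was not tested. With the aorta fitted alone the filter removed Chrdl2 and Galnt14. That of Gm14226 ran from -3.09 to -0.93 and was called under none of the alternatives.

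Second series alone, 419 genes were called in the DA, 226 in the aorta and 166 in the interaction, against 894, 404 and 425, with 8 and 7 list genes against 15 and 12 and 1 neighbour against 3 in the DA; fewer libraries entered. The aorta fitted alone gave 702 genes, 21 list genes and 6 neighbours. The DA fitted alone, and the fit with no pooled libraries, each gave 8 list genes in the DA. Totals of all genes called in these fits are not given here. Leaving out single libraries gave 9 to 17 list genes in the DA and 8 to 16 in the aorta, 784 to 948 and 325 to 441 genes called, and 1 to 4 neighbours in the aorta, with 1 without control aorta replicate 1 or deficient aorta replicate 5. The alternatives for neighbours were added after seeing the data.

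By the animal numbers, replicate numbers mark the same embryo in 3 of 19 same-numbered pairs, so the number is no pairing. Correlations of deviations ran from -0.054 to 0.133 in these pairs and from -0.022 to 0.08 in 10 pairs of the same embryo. They therefore cannot tell a pairing from none. The replicate block gave 780 genes in the DA and 358 in the aorta, with 12 and 11 list genes, and DA differences of -7.89, -10.37, -6.78 and 2.28 for Galnt14, Chrdl2, Gm14226 and Ccdc3. RLE moved the median of all genes by less than 0.1. DESeq2 called 1115 genes in the DA. At this depth, members at or under 3 counts are limited to lower bounds.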
